A study of Homo sapiens with 3 samples.

Results

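The 47 genes described here encode the machinery of mitosis: the mitotic spindle and its kinesins, the kinetochore and the spindle checkpoint, the chromosome passenger complex, condensin, and the proteins of cytokinesis. They were taken by name from the deposited gene table, which held all 47 among its 58302 genes. The libraries came from HCT116, an established human colorectal cancer line. One library was made from cells that received a non-targeting control small interfering RNA (siRNA), and 2 from cells that received siRNAs against DUOX2, an oxidase that makes hydrogen peroxide, each with its own sequence. Each siRNA thus had 1 library and so did the control; no label gives the dose or the time after transfection, or says that the cultures were separate. The only replicate error in any p-value is the spread of the siRNA libraries around each other, and it may be technical.

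Mitotic genes are transcribed late in the cell cycle. Many of their promoters carry a cell-cycle homology region (CHR), which is bound by the MuvB complex: in resting and G1 cells as part of the repressive DREAM complex, and in G2 together with B-MYB and FOXM1, which activate the same genes. Many of their products are then destroyed at the end of mitosis by the anaphase-promoting complex. In bulk RNA a change in the share of cells in G2 and mitosis and a change in RNA per cell cannot be told apart.

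The siRNAs are shown because they define the groups. The strand that pairs with the target is written 5′ to 3′, and capitals mark its seed, bases 2 to 8.
siRNA 1: aACCACUAuguuguccucctt
siRNA 2: aUGAAGGAucgcaucauggtt
control siRNA: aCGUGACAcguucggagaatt
The 3 seeds differ. A 7-base match to the seed of siRNA 1 was found in the 3′ UTR of 3 of the 47 genes (KIF11, MAD2L1 and PRC1), or 6.38%, against 8.20% of the 13021 protein-coding genes tested. For siRNA 2 it was 4 (BUB3, DLGAP5, INCENP and NUSAP1), or 8.51% against 16.3%, and for the control siRNA 1 (INCENP), or 2.13% against 3.05%. The 3′ UTR of MKI67 held no match to any of the 3 seeds.

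DUOX2 itself had 2, 2 and 0 counts (here and below, 3 counts in a row stand for control, siRNA 1 and siRNA 2), all at or under the limit of 3 counts, so the knockdown could not be seen at this depth. The libraries held between 17589502 and 19130768 counts. EPCAM, KRT8 and KRT18, markers of epithelial cells, had at least 7646 counts in every library, while KRT20, CDX1 and LGR5 had at most 4. The 10 epithelial markers summed to 5349, 3284 and 4870 CPM; of the 7 tested, EPCAM was higher with both siRNAs, 4 were lower (KRT18, KRT19, VIL1 and CDX2) and 2 were mixed. KRT19 had 16482, 6102 and 8563 counts and CDX2 2001, 893 and 1204; their part in the members' values was not tested. The library protocol in the labels speaks of retinas; the retina markers PDE6B, GNAT1, SAG, CRX, OPN1SW and ARR3 had 0 counts in every library, RCVRN had at most 3, and NRL had 14, 13 and 11. The summed level of the retina markers was 8.53 CPM (counts scaled to the library total) in the control against 4.81 (siRNA 1) and 6.11 (siRNA 2), most of it from RLBP1. The fibroblast list summed to between 2.30 and 3.75 CPM and the immune list to between 2.67 and 5.29 CPM.

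All 47 genes passed the filter on low counts, and the smallest value was 380 counts, for NUF2 in the control. Relative to the control, 34 of the 47 genes were higher with both siRNAs, and 8 were lower with both; over all 17263 genes tested 41.9% were higher with both and 41.6% lower with both. PLK1, AURKA, UBE2C and KIF2C were below the control with siRNA 1 and above it with siRNA 2 (7.53% of all genes were), and PTTG1 was the reverse (8.87%). The 2 comparisons share the control library, so an equal sign is not independent. The median log2 fold change of the 47 genes was 0.53 with siRNA 1 and 0.42 with siRNA 2, against -0.0019 for the mean of both siRNAs over all genes tested. At least 1.5-fold, 14 genes were higher with both siRNAs (11.0% of all genes tested were) and 1 was lower (15.5% were). At least 2-fold, PTTG1IP was higher with both siRNAs and MKI67 lower, with 4.0% and 5.05% of all genes. Transcripts of the 47 genes together made 1.12% of all counts in the control against 1.30% (siRNA 1) and 1.35% (siRNA 2).

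None of the 47 genes passed edgeR's quasi-likelihood test at an adjusted p of 0.05, a threshold that 0.0579% of all genes tested passed; their adjusted p-values ran from 0.0580 to 0.963. At an unadjusted p under 0.05 in edgeR, 24 of the 47 were higher, against 11.5% of all genes, and 2 were lower, against 14.5%. DESeq2, run on the same counts, called 4 of the 47: PTTG1IP, TTK and ASPM higher (1.47% of all genes were called higher) and MKI67 lower (1.66%). With 1 residual degree of freedom and a single control library, a difference in the control alone would appear in every one of these values.

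**Figure D1:**
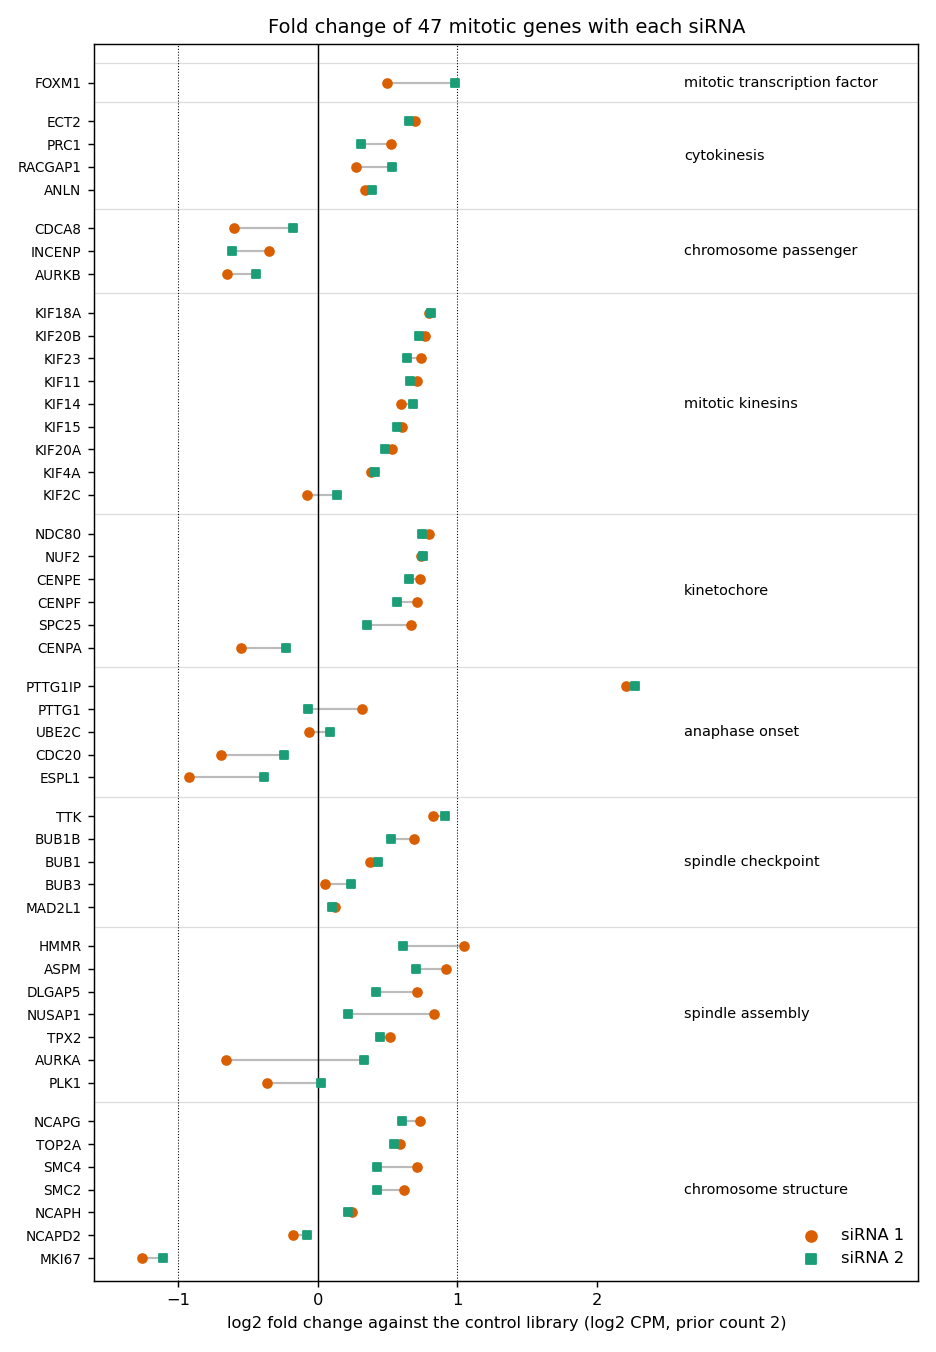
Log2 fold change of each of the 47 genes against the control library (x axis) with siRNA 1 (circles) and siRNA 2 (squares), grouped by role; grey bars join the 2 values of a gene and dotted lines mark 2-fold. PTTG1IP lies near 2.2 and MKI67 near -1.2 with both siRNAs, while most other genes lie between 0 and 1.

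The fold changes followed base composition, and this touches every value below. The transcripts of the 47 genes had a median GC content of 42.5%, with a range from 34.2% (KIF20B) to 59.6% (INCENP), against 48.5% for all genes tested. Over all genes the fold changes of both siRNAs declined with GC content (Spearman's rank correlation -0.68 with siRNA 1 and -0.64 with siRNA 2, across 17209 genes). Among the 47 genes the same coefficients were -0.69 and -0.61; the genes share libraries and are not independent replicates. All 15 members under 40% GC and all 12 members between 40% and 45% were higher with both siRNAs, as were 81.8% and 70.5% of all genes in those ranges. Of the 6 members at 55% GC or more, 4 were lower with both siRNAs and 1, FOXM1, was higher with both, where 5.99% of all genes were.

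When the trend of fold change on GC content was subtracted, the median of the 47 genes moved from 0.51 to 0.14 for the mean of both siRNAs, and 27 were higher with both siRNAs (37.2% of all genes), 6 lower (35.2%) and 14 mixed. PTTG1IP and FOXM1 were then the genes at least 1.5-fold higher with both siRNAs (7.39% of all genes) and MKI67 the one lower (4.55%). PTTG1IP and MKI67 were also still past 2-fold, with 3.34% of all genes higher and 1.41% lower. Genes at an unadjusted edgeR p under 0.05 numbered 5 after the removal: PTTG1IP, FOXM1, TTK and KIF20A higher, against 6.18% of all genes, and MKI67 lower, against 3.97%. Whether the GC trend arose in the cells or in library preparation was not tested.

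**Figure D2:**
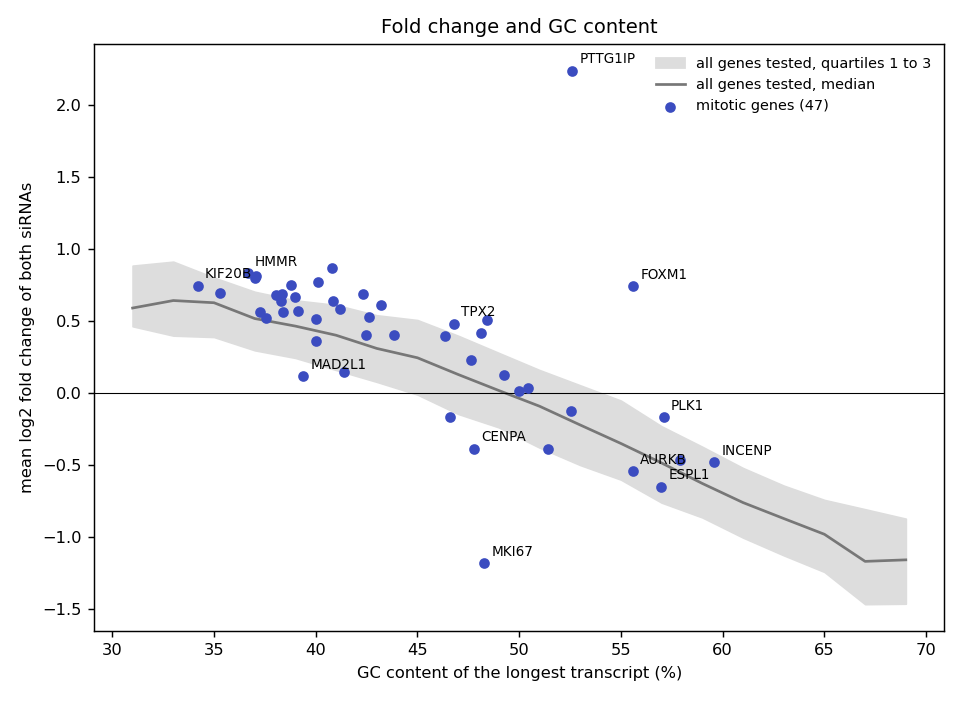
Mean log2 fold change of both siRNAs (y axis) against the GC content of the longest transcript (x axis) for the 47 genes (points), over the median (line) and quartiles (grey) of all genes tested in steps of 2 percentage points. Most points follow the line; PTTG1IP and FOXM1 lie above it and MKI67 below it.

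PTTG1IP, the PTTG1-interacting protein, is a small membrane glycoprotein named for binding securin and is not itself a part of the spindle. It lies on chromosome 21, 44849585 to 44873903 (GRCh38, ENSG00000183255). It had 2312, 10542 and 11474 counts. The siRNA libraries were close to each other and far above the control, at 4.62-fold (95% interval 4.42 to 4.83, counting error only) and 4.83-fold (4.62 to 5.06). The edgeR log2 fold change was 2.24 ± 0.20 SE, with an adjusted p of 0.0580 (edgeR) and of 1.46e-15 in DESeq2. With the GC trend removed the fold changes were 2.44 and 2.45 on the log2 scale, and 0.524% of the 2288 genes within 2 percentage points of its GC content (52.6%) had a mean fold change as high. PTTG1, the securin it binds, had 3178, 3909 and 3107 counts. The ratio of PTTG1IP to PTTG1 counts, which no scaling between libraries touches, was 0.728 in the control against 2.70 (siRNA 1) and 3.69 (siRNA 2).

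MKI67 encodes Ki-67, which coats mitotic chromosomes and keeps them apart, and is the standard marker of proliferating cells. It lies on chromosome 10, 128096659 to 128126385 (GRCh38, ENSG00000148773), and its longest transcript has 12678 bases. It had the most counts of the 47 genes in the control, 23853, against 9847 with siRNA 1 and 11388 with siRNA 2. Both siRNA libraries held less than the control, at 0.418-fold (95% interval 0.409 to 0.428, counting error only) and 0.465-fold (0.455 to 0.475). The edgeR log2 fold change was -1.18 ± 0.18 SE, with an adjusted p of 0.105 in edgeR and 4.02e-04 in DESeq2. MKI67 made 12.1% of the counts of the 47 genes in the control against 3.95% (siRNA 1) and 4.48% (siRNA 2). Its counts divided by those of TOP2A, another abundant gene of proliferating cells, were 1.75 in the control against 0.487 (siRNA 1) and 0.556 (siRNA 2). TOP2A has 39.1% GC against 48.3% for MKI67, and this ratio was not adjusted for GC content.

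MKI67 has a GC content of 48.3%. With the trend removed it stood at -1.32 with siRNA 1 and -1.15 with siRNA 2. Of the 9 other members within 2 percentage points of its GC content, 5 were higher with both siRNAs, 3 were mixed and 1, CENPA, was lower with both. The median of all 2494 genes in that range was 0.06, and 1.88% of them were at or below MKI67. No other gene in GENCODE 29 shares exon bases with MKI67, and its annotated processed copies had 0 counts in every library.

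The promoters of both genes are shown with those of HMMR, ASPM, ESPL1 and AURKB, the next highest and lowest genes that had a window, to set the motifs of genes on opposite sides of the control beside each other. RefSeq windows of GRCh38.p14, from 250 bases before the transcription start to 50 after it, were found for 40 of the 47 genes. The motifs searched, on both strands, were the CHR as TTTGAA or TTCGAA, and CCAAT, the site of the factor NF-Y. Capitals mark the matches, in the direction in which each gene is transcribed; matches that overlap run together. RefSeq gives AURKB 2 starts, of which 1 is shown.
PTTG1IP (chr21:44873641-44873940, minus strand): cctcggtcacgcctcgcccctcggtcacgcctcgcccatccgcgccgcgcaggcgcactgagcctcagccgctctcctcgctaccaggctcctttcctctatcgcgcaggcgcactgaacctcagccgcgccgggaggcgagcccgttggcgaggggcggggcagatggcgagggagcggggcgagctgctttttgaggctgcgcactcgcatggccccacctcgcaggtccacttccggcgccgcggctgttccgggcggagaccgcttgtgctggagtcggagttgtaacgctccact
HMMR (chr5:163460382-163460681, plus strand): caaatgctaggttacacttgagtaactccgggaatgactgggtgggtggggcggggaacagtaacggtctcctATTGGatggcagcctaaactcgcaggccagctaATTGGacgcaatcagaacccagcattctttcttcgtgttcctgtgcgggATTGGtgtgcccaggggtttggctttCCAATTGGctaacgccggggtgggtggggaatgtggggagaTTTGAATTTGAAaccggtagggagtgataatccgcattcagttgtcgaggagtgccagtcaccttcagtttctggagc
ASPM (chr1:197146620-197146919, minus strand): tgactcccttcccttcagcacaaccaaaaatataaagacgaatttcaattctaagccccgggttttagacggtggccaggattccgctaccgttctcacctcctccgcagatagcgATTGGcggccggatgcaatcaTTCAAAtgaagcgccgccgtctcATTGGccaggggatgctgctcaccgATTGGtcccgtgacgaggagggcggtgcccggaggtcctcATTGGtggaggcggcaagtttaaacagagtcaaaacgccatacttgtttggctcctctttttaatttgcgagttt
MKI67 (chr10:128126374-128126673, minus strand): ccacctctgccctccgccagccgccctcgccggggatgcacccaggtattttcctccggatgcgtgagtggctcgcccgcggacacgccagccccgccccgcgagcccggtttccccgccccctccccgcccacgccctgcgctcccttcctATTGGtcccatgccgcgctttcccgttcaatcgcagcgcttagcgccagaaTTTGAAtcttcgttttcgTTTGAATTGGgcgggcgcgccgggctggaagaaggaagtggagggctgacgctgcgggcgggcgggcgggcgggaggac
ESPL1 (chr12:53268049-53268348, plus strand): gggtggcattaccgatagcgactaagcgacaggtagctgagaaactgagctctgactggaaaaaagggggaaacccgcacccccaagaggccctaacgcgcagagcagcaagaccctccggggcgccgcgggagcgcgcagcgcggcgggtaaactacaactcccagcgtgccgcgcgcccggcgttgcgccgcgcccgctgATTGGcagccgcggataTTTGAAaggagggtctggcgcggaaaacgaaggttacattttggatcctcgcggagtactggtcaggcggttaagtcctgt
AURKB (chr17:8210176-8210475, minus strand): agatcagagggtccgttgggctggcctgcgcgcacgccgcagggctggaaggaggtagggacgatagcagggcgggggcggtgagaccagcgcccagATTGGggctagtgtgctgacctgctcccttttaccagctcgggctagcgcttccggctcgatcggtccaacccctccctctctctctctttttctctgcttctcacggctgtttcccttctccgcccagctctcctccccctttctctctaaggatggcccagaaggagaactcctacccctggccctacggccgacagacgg
MKI67 held 2 CHR matches, at -47 to -42 and -29 to -24 from the start, and 2 CCAAT matches, one of which overlaps the second CHR by a base. HMMR held 2 CHR matches in a row at -28 to -17 and 5 CCAAT matches, ESPL1 1 CHR at -31 to -26 and 1 CCAAT, and ASPM 1 CHR farther out, at -113 to -108, with 4 CCAAT. PTTG1IP held neither motif, and AURKB held CCAAT alone. The 6 genes were picked by their fold changes, so no relation of motifs to fold change can be read from them.

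Over the 40 windows, 33 (82.5%) held a CHR, against 19.5% of the 27305 genes with a window, and 29 (72.5%) held CCAAT, against 39.7%. Both motifs were present in 25 (62.5%), against 7.85%. In 27 of the 40 a CHR lay within 50 bases of the start, against 6.24% of all genes. The median mean log2 fold change was 0.56 for the 33 genes with a CHR and 0.23 for the 7 without (NCAPH, PTTG1, PTTG1IP, CENPE, KIF2C, KIF20A and AURKB). For CCAAT it went the other way, at 0.42 with and 0.61 without. Genes with both motifs had 0.51 against 0.56 for the rest. These medians were not adjusted for GC content, and their differences were not tested. A match says only that these letters are present.

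**Figure D3:**
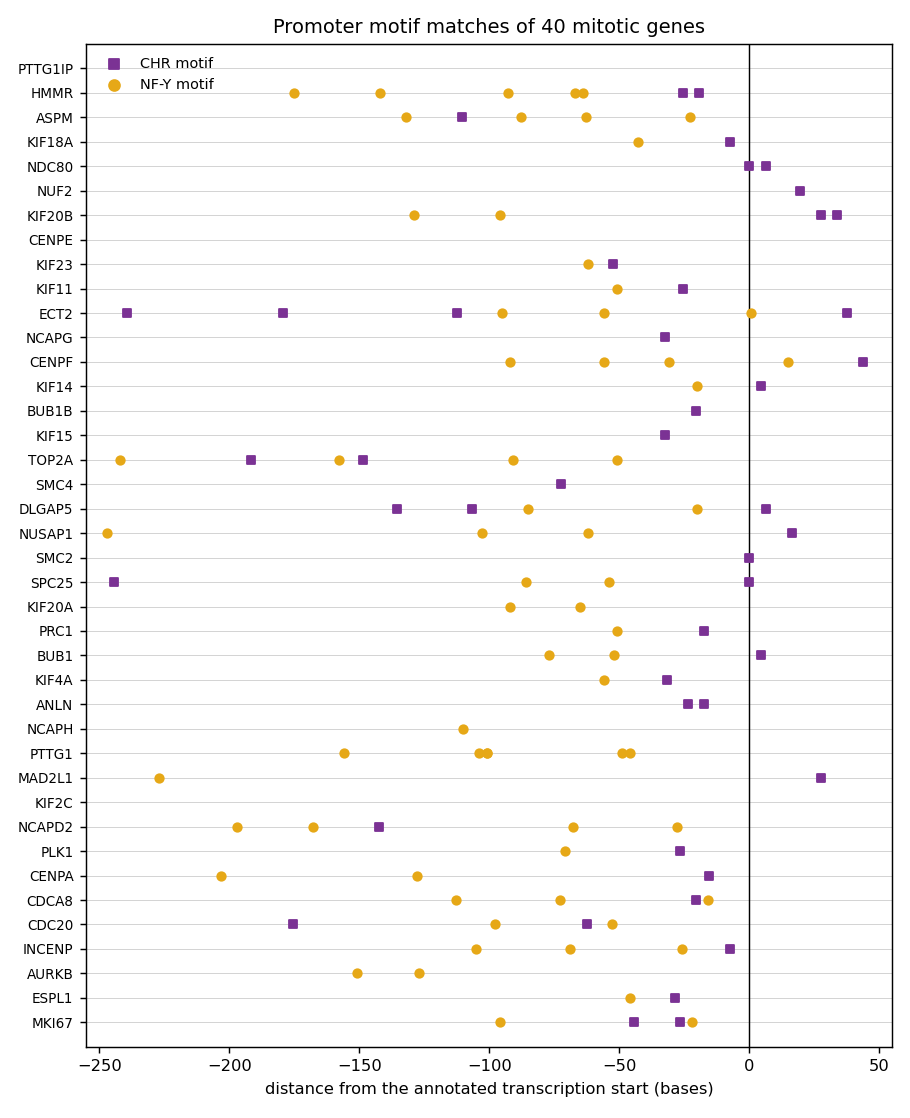
Position of CHR (squares) and NF-Y (circles) motif matches from 250 bases before to 50 bases after the transcription start (x axis, distance in bases) in 40 genes, ordered by mean fold change from MKI67 at the bottom to PTTG1IP at the top; starts of genes with several are overlaid. CHR matches crowd within 50 bases of the start in genes at every height of the plot, and PTTG1IP, CENPE and KIF2C hold no match to either motif.

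FOXM1, the forkhead factor that activates G2 and mitotic genes, had 2195, 3062 and 4452 counts. Both siRNA libraries were above the control, siRNA 2 more so, at log2 fold changes of 0.50 and 0.98 (edgeR 0.76 ± 0.26 SE, adjusted p = 0.160). Its transcript has 55.6% GC, where the median of all genes in a range of 2 percentage points either way was -0.40 and 5.27% had a mean fold change as high. With the trend removed the values were 0.95 and 1.33. FOXM1 shares 15.9% of its exon bases with ITFG2 on the opposite strand, which had 548, 448 and 487 counts, so the division of reads is uncertain.

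The chromosome passenger complex corrects faulty attachments between kinetochores and microtubules and then steers cytokinesis. Its 3 members were all lower with both siRNAs, as were 41.6% of all genes tested. AURKB and INCENP lie at 55% GC or more, where the median of all genes was -0.69 and 5.99% were higher with both. CDCA8 lies between 50% and 55%, where the median was -0.18 and 22.7% were higher with both. AURKB, the kinase of the complex, had 2321, 1458 and 1757 counts (log2 fold change -0.65 and -0.44). INCENP, its scaffold, had 3346, 2595 and 2240 counts (-0.35 and -0.62), and CDCA8, the borealin subunit, had 2134, 1390 and 1934 (-0.60 and -0.18). The fourth subunit, BIRC5 (survivin), which is outside the 47 genes, had 532, 445 and 563 counts (-0.24 and 0.04). None passed (edgeR adjusted p between 0.176 and 0.355 for the 3 members and 0.832 for BIRC5), and the GC contents were 55.6% for AURKB, 59.6% for INCENP and 51.4% for CDCA8. With the trend removed AURKB moved to -0.20 and -0.10 and CDCA8 to -0.45 and -0.07, and INCENP moved to 0.40 and -0.04.

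Kinesins are motors that walk on or take apart microtubules. Of the 9 mitotic kinesins 8 were higher with both siRNAs, the median being 0.61 with siRNA 1 and 0.64 with siRNA 2. Over all genes tested 41.9% were higher with both, and 70.5% of those between 40% and 45% GC. The median GC content of the 9 was 41.2%. KIF11, KIF14, KIF18A and KIF20B lie under 40% GC, where 81.8% of all genes were higher with both. KIF4A and KIF20A lie between 45% and 50%, where 49.7% were, and KIF2C between 50% and 55%, where 22.7% were. KIF11 (Eg5), which pushes the spindle poles apart, had 3030, 4907 and 4908 counts. KIF18A, which dampens chromosome movements at the metaphase plate, had 930, 1592 and 1675 counts, the highest mean fold change of the group (0.79 and 0.81). KIF20B, a motor of late mitosis, had 2527, 4248 and 4280 counts, and KIF23, the motor subunit of centralspindlin, had 3589, 5920 and 5738. These 4 genes were at least 1.5-fold above the control with both siRNAs, as was KIF14, a cytokinesis motor (1504, 2249 and 2479 counts). KIF15, KIF20A and KIF4A had log2 fold changes between 0.38 and 0.61. KIF2C (MCAK), which depolymerizes microtubules at centromeres, had 2732, 2558 and 3084 counts, at -0.08 with siRNA 1 and 0.14 with siRNA 2. KIF4A has a near-identical copy, KIF4B, with 120, 258 and 215 counts.

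The kinesin values ran close together between the siRNAs, and 0 of the 9 passed (edgeR adjusted p between 0.126 and 0.925). With the GC trend removed all 9 were above the control with both siRNAs, against 37.2% of all genes, and the median for the mean of both was 0.20. KIF20A, at 48.4% GC, then stood at 0.48 and 0.44, the highest of the group. The transport kinesins, motors and light chains that carry cargo in cells outside mitosis, had 17 tested genes with a median of -0.07, and 0.02 after removal. Of them 7 were higher and 8 lower with both siRNAs, against 41.9% and 41.6% of all genes tested. Their median GC content was 54.6%, and 22.7% of all genes between 50% and 55% GC were higher with both. As measured the list ran from KIF21B (348, 157 and 141 counts) to KIF5B (6290, 9658 and 9374 counts). After removal KIF21B stood at -0.36 and -0.75, still the lowest mean, and KIF5B at 0.12 and 0.14. Another gene then had the highest mean of this list, 0.47.

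At the kinetochore, which ties chromosomes to microtubules, 5 of 6 genes were higher with both siRNAs, against 41.9% of all genes tested. The group had a median GC content of 40.1%, and 70.5% of all genes between 40% and 45% GC were higher with both. CENPE (35.3%) and NUF2 (38.8%) lie under 40% GC, where 81.8% were. CENPA (47.8%) lies between 45% and 50%, where 49.7% were. NDC80 (1811, 3102 and 3114 counts) and NUF2 (380, 627 and 660 counts) form one arm of the NDC80 complex that grips the microtubule. Their ratio, NUF2 to NDC80, stayed between 0.202 and 0.212 in the 3 libraries. SPC25, from the other end of the complex, had 1614, 2530 and 2119 counts. CENPE, a kinesin that moves chromosomes to the plate, had 2662, 4360 and 4298 counts, and CENPF, a large protein of the outer kinetochore, had 12077, 19544 and 18381. NDC80, NUF2 and CENPE were at least 1.5-fold above the control with both siRNAs. CENPA, the histone H3 variant that marks the centromere, was below the control in both siRNA libraries, with 623, 420 and 546 counts (-0.55 and -0.23). After removal of the trend CENPA stood at -0.64 and -0.30, the median of the group moved from 0.67 to 0.17, and 4 of the 6 genes were above the control with both siRNAs; SPC25 was of mixed sign (0.18 and -0.02). None of the 6 passed (edgeR adjusted p between 0.125 and 0.359).

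The spindle checkpoint delays anaphase until every chromosome is attached. All 5 of its genes were above the control with both siRNAs, by unequal amounts, where 41.9% of all genes tested were. Their median GC content was 41.4%, and 70.5% of all genes between 40% and 45% GC were higher with both. MAD2L1, at 39.4%, lies under 40%, where 81.8% were. TTK (MPS1), the kinase that starts the checkpoint, had 2196, 3850 and 4236 counts, at 1.78-fold and 1.88-fold (edgeR log2 fold change 0.87 ± 0.19 SE, adjusted p = 0.116; DESeq2 adjusted p = 0.0311). BUB1B (BUBR1), part of the inhibitor of CDC20, had 1946, 3104 and 2878 counts, and BUB1, a kinase that recruits it, had 4592, 5873 and 6363. BUB3, their shared binding partner, had 3599, 3677 and 4367 counts, and MAD2L1, which binds CDC20, had 1674, 1804 and 1845. The last 2 lay within 0.25 of the control on the log2 scale with both siRNAs. After removal TTK stood at 0.37 and 0.56 and BUB1B at 0.34 and 0.26, BUB1 was of mixed sign (-0.01 and 0.14), and BUB3 (-0.38 and -0.09) and MAD2L1 (-0.38 and -0.29) were below the control. MAD2L1 has a processed copy, AL132777.1, with 101, 259 and 185 counts, and BUB1B shares 10.2% of its exon bases with the read-through BUB1B-PAK6, which had 0, 31 and 1 counts.

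Anaphase begins when CDC20 activates the anaphase-promoting complex, UBE2C supplies it with ubiquitin, securin (PTTG1) is destroyed and separase (ESPL1) cuts cohesin. Apart from PTTG1IP, none of these genes was above the control with both siRNAs. CDC20 had 3430, 2094 and 2979 counts (-0.69 and -0.24), and ESPL1 had 3144, 1636 and 2477 (-0.92 and -0.38; edgeR adjusted p = 0.204). UBE2C had 3302, 3128 and 3605 counts and PTTG1 3178, 3909 and 3107, each with 1 siRNA on either side of the control. CDC20 and ESPL1 have 57.9% and 57.0% GC, and with the trend removed both had opposite signs with the 2 siRNAs. CDC20 has a processed copy, CDC20P1, with 252, 250 and 408 counts, and UBE2C several with at most 43 counts each.

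Among the genes of spindle assembly, HMMR and ASPM were at least 1.5-fold above the control with both siRNAs. HMMR, a microtubule-binding protein of the spindle poles, had 2811, 5749 and 4418 counts. ASPM, which focuses microtubule ends at the spindle poles, had 4342, 8120 and 7252 (edgeR log2 fold change 0.82 ± 0.20 SE, adjusted p = 0.125; DESeq2 adjusted p = 0.0492). TPX2, which activates Aurora A on the spindle, had 11021, 15532 and 15451 counts, and DLGAP5, which stabilizes the microtubules of the kinetochores, had 1868, 3018 and 2560. NUSAP1, a microtubule bundler, had 3255, 5734 and 3890 counts. It shares 62.2% of its exon bases with AC087721.2 on the same strand. AC087721.2 is not among the genes the authors listed, so how shared reads were assigned is not known and NUSAP1's counts are uncertain. With the trend removed HMMR stood at 0.44 and 0.15, ASPM at 0.33 and 0.25 and TPX2 at 0.36 and 0.32. NUSAP1 (0.46 and -0.07) and DLGAP5 (0.17 and -0.0012) were then of mixed sign.

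The kinases AURKA and PLK1 did not have like values with the 2 siRNAs. AURKA, which matures the centrosomes, had 3832, 2397 and 4941 counts, so the control lay between the siRNA libraries. The ratio of siRNA 1 to siRNA 2 was 0.505 (95% interval 0.480 to 0.530, counting error only), the widest difference between the siRNAs among the 47 genes, and 6.75% of all genes differed as much or more. PLK1, the polo-like kinase of mitotic entry and exit, had 2228, 1707 and 2328 counts (-0.37 and 0.03). AURKA and NUSAP1 were the 2 of the 47 genes whose siRNA libraries differed by at least 1.5-fold, against 17.8% of all genes tested. ESPL1, FOXM1, CDC20 and CDCA8 came next among genes lower with siRNA 1 than with siRNA 2, each by more than 0.4 on the log2 scale. In all, 22 of the 47 genes were lower with siRNA 1 than with siRNA 2, against 50.5% of all genes. With 1 library per siRNA these differences were not tested. The median absolute difference between the siRNAs was 0.15 over the 47 genes and 0.24 over all genes tested. The 47 genes had at least 380 counts in every library, while the genes tested include some near the filter's minimum count of 10. Low counts scatter more, and these shares and medians were not matched for counts.

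Condensin I folds chromosomes for mitosis, and its 5 subunits did not move alike. The SMC arms SMC2 (4597, 6958 and 6337 counts) and SMC4 (10388, 16747 and 14284 counts) kept a ratio of SMC2 to SMC4 between 0.415 and 0.444 in the 3 libraries. NCAPG had 3583, 5870 and 5603 counts, at 0.73 and 0.61. NCAPH, the kleisin that closes the ring, had 2120, 2475 and 2524 (0.24 and 0.21), and the ratio of NCAPH to NCAPG was 0.592 in the control against 0.422 (siRNA 1) and 0.450 (siRNA 2). NCAPD2 had 7153, 6256 and 6957 counts, below the control with both siRNAs (-0.17 and -0.08). Their GC contents were 39.0% for NCAPG, 37.3% for SMC4, 37.6% for SMC2, 47.6% for NCAPH and 52.5% for NCAPD2. After removal of the trend, all 5 lay within 0.21 of the control with each siRNA. NCAPG shares 33.1% of its exon bases with LCORL, and SMC4 18.5% with TRIM59, both on the opposite strand. TOP2A, the topoisomerase that untangles sister chromatids, had 13635, 20227 and 20481 counts (0.59 and 0.55), and 0.07 and 0.15 after removal.

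The 4 genes of cytokinesis were above the control with both siRNAs, against 41.9% of all genes tested. Their median GC content was 41.9%, and 70.5% of all genes between 40% and 45% GC were higher with both. ECT2 lies under that range at 38.0% GC, and 81.8% of all genes under 40% were higher with both. PRC1 lies above it at 48.1%, and 49.7% of all genes between 45% and 50% were. ECT2, the exchange factor that starts furrowing at the cleavage site, had 3165, 5074 and 5116 counts, at least 1.5-fold with both. ANLN (anillin), the scaffold of the contractile ring, had 14042, 17553 and 18846. RACGAP1, the partner of KIF23 in centralspindlin, had 2672, 3193 and 3967 counts and PRC1, which bundles the central spindle, had 2370, 3361 and 3019. PRC1 shares 57.6% of its exon bases with AC068831.7 on the same strand and is uncertain. AC068831.7 is also not among the genes the authors listed. None of the 4 passed (edgeR adjusted p between 0.129 and 0.261), and with the trend removed 2 stayed above the control with both siRNAs, ECT2 at 0.14 and 0.23 and PRC1 at 0.45 and 0.25. ANLN (-0.15 and 0.01) and RACGAP1 (-0.05 and 0.28) were then of mixed sign.

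Levels of different genes were compared per length of merged exons (counts per kilobase of exon bases, each base counted once, scaled as CPM), because the lengths behind the authors' FPKM counted bases of overlapping exons more than once. On this scale the control library ran from 6.43 for NUF2 to 174 for TPX2, that is from above 60.3% to above 98.7% of all genes tested. After TPX2 came UBE2C (146), ANLN (133), TOP2A (120) and MKI67 (106), and with no replicate of the control the order of neighbours cannot be tested. MKI67 stood at rank 5 of 47 in the control, rank 26 with siRNA 1 (40.2) and rank 24 with siRNA 2 (47.2). PTTG1IP stood at rank 24 in the control (37.2), rank 3 with siRNA 1 (156) and rank 2 with siRNA 2 (172). By the deposited FPKM, whose lengths were 2.65 times the merged length for AURKB, AURKB took rank 26 in the control in place of 12. KIF11 and TPX2, whose lengths agreed, had the same value on both scales.

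**Figure D4:**
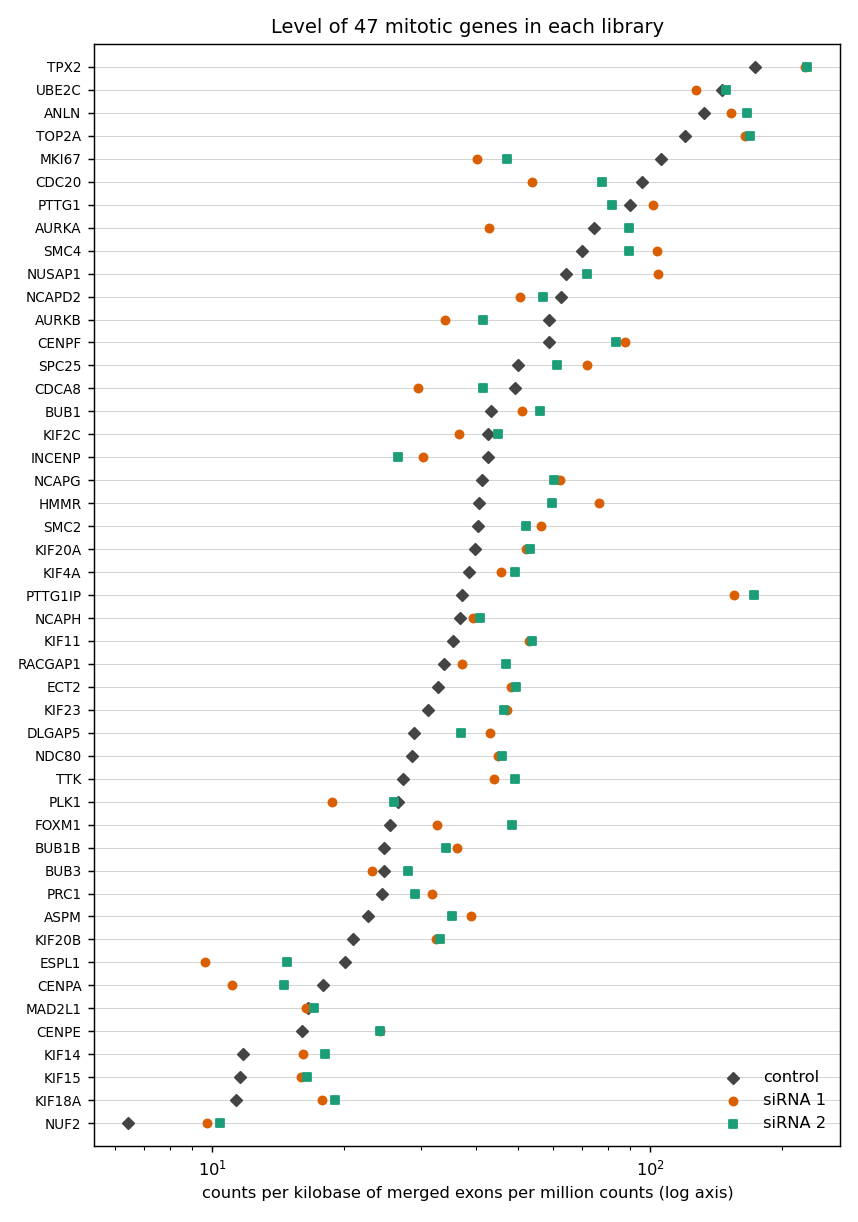
Level of each of the 47 genes in the control (diamonds), siRNA 1 (circles) and siRNA 2 (squares) libraries, in CPM per kilobase of merged exons on a log axis, ordered by the control. MKI67 moves from rank 5 to 26 and 24 and PTTG1IP from rank 24 to 3 and 2; AURKB, CDCA8, INCENP and KIF2C also move down the order with both siRNAs, AURKB from rank 12 to 32 and 29.

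Mitotic genes outside the 47 were described in the same way. Over all genes tested, 41.9% were higher with both siRNAs and 41.6% lower, or 37.2% and 35.2% with the trend removed. Between 40% and 45% GC, 70.5% of all genes were higher with both. The other kinetochore and checkpoint list, the condensin II and cohesin list and the mitotic entry list had median GC contents in that range. Of 29 other kinetochore and checkpoint genes, 21 were higher and 4 lower with both siRNAs, with a median of 0.41, and 0.09 after removal of the trend. MIS12, which links the inner to the outer kinetochore, was the highest, with 382, 1271 and 1145 counts (edgeR adjusted p = 0.105) and 1.32 and 1.22 after removal. CENPM (352, 152 and 214 counts) was the lowest as measured, at -1.18 and -0.75, and stood at -0.30 and -0.08 after removal. Another gene then had the lowest mean of this list, -0.56. Of 26 other spindle, centrosome and cytokinesis genes 15 were higher and 8 lower, with a median of 0.15, and 0.07 after removal. As measured, SAPCD2 was the lowest (2485, 970 and 1328 counts) and stood at -0.12 and -0.02 after removal. The midbody protein CEP55 was the highest (2323, 4025 and 3884 counts), at 0.38 and 0.37 after removal. Means of this list then ran from -0.19 to 0.60, with other genes at both ends. Condensin II and cohesin had 11 of 13 genes higher and a median of 0.45; after removal 8 were higher, 2 lower and 3 mixed, with a median of 0.08. They ran from NCAPH2 (752, 287 and 443 counts; -0.43 and -0.09 after removal) to the cohesin regulator PDS5B (2681, 5007 and 4189; 0.31 and 0.14). The 18 mitotic entry kinases, cyclins and phosphatases had 12 higher and 3 lower, with a median of 0.34, and 0.06 after removal. As measured, PKMYT1, an inhibitor of CDK1, was the lowest (529, 200 and 307 counts) and stood at -0.17 and 0.09 after removal. The PLK1 activator BORA was the highest (471, 992 and 819 counts), at 0.65 and 0.42 after removal. Another gene then had the lowest mean of this list, -1.34. No gene of these lists passed edgeR's adjusted test. DESeq2 called 1 higher among the other kinetochore and checkpoint genes (1.47% of all genes were). It called 1 lower among the other spindle, centrosome and cytokinesis genes (1.66% were).

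The anaphase-promoting complex, which the CDC20 and UBE2C products serve, had 17 genes with a median of 0.20. Its outer values were UBE2S, the enzyme that extends ubiquitin chains for the complex, at 2679, 867 and 1260 counts, and the subunit ANAPC13, at 431, 1028 and 907. With the GC trend removed UBE2S stood at -1.15 and -0.78 and ANAPC13 at 1.01 and 0.83, and the median turned to -0.06. Another gene then had the lowest mean of this list, -1.04. DESeq2 called 1 gene of this list higher (1.47% of all genes were) and 1 lower (1.66% were). The 12 genes of the MuvB, DREAM and B-MYB complex, which act on the CHR, had a median of 0.19 and 0.05 after removal. As measured they ran from LIN37 (79, 46 and 54 counts) to LIN9 (430, 544 and 804). After removal LIN37 stood at -0.02 with each siRNA and LIN9 at -0.08 and 0.53. Means of this list then ran from -0.62 to 0.41, with other genes at both ends. DNA replication, the other large set of genes of dividing cells, had 19 of 43 genes higher and 16 lower, against 41.9% and 41.6% of all genes tested. The median was -0.0077, and -0.02 after removal. As measured the list ran from CDT1 (1465, 608 and 861 counts) to RFC3 (1607, 2290 and 2962). After removal CDT1 stood at -0.12 and 0.04 and RFC3 at 0.01 and 0.44. Means of this list then ran from -0.87 to 0.38, with other genes at both ends. Replication genes had a median GC content of 45.5%, against 42.5% for the 47 mitotic genes. The difference between these lists was not tested.

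**Figure D5:**
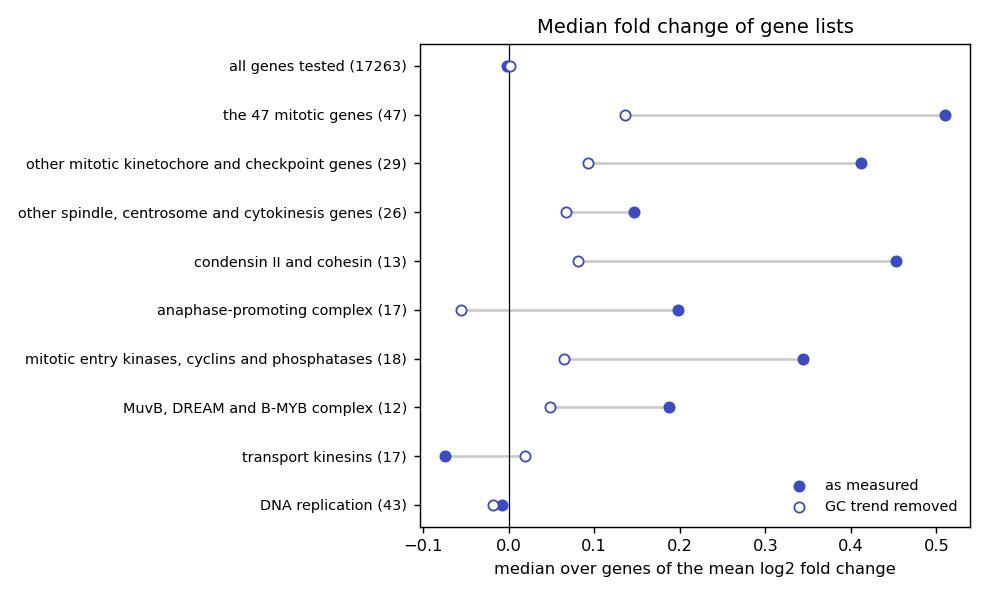
Median over genes of the mean log2 fold change of both siRNAs (x axis) for the 47 genes, other mitotic lists, transport kinesins, DNA replication and all genes tested, as measured (filled) and with the GC trend removed (open); the number of genes tested is in parentheses. The mitotic lists move from between 0.15 and 0.51 to between -0.06 and 0.14.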

How the data were processed

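RNA was sequenced from HCT116 cells in 3 libraries. Each library has a column of counts and one of FPKM in the table that the authors deposited. The submitters' processing notes name Bowtie 0.12.2, GRCh38 and mm8 without their roles; the gene coordinates match GRCh38, since 97.6% of 58039 genes had the GENCODE 29 coordinates. How reads were counted, by strand or at repeated places, is not stated in those notes. The length behind the deposited FPKM equals the sum of all distinct exons, with overlapping exons counted repeatedly, within 0.5 bases for 92.1% of 13047 genes with at least 50 counts and for 46 of the 47 genes described.

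Counts were tested with edgeR 4.0.16 in R 4.3.3 (TMM, filterByExpr with a minimum count of 10, glmQLFit, glmQLFTest, Benjamini-Hochberg over 17263 genes), siRNA libraries as replicates 1 and 2 against 1 control. The fit was tested on simulated data. Per-siRNA fold changes are differences of TMM-scaled log2 CPM with a prior count of 2. GC content is that of the longest GENCODE 29 transcript, and its trend was removed by lowess (fraction 0.3), in edgeR as an offset. Intervals are exact binomial at 95% and cover counting error only; 3 counts correspond to between 0.157 and 0.171 CPM. Alternatives were DESeq2 1.42.0, limma 3.58.1 on log2(FPKM + 1), other scalings and filters, leaving out an siRNA, and summing counts with annotated copies. One gene of the retina list is not reported here. The members and lists were chosen with earlier results of these data known. Counts in all 3 libraries were given for members at least 1.5-fold from the control in 1 direction with both siRNAs. They were also given for the member with the highest mean FPKM in each role and for members called by any tool. Fold changes were printed for only part of these members, and members of mixed sign were named. Outside the 47 genes the highest and lowest tested gene of each list, BIRC5 and DUOX2 were named, and other values shown were chosen after they were seen. The highest and lowest genes were taken by mean fold change before removal of the GC trend.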

Additional observations from a re-analysis of the deposited data

How the results depend on the processing

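One library per siRNA and a single control limit every value. Of the 47 genes 0 passed edgeR's adjusted test under TMM, median-ratio or total count scaling, without a filter, at 1 CPM or more in every library, with the GC trend removed or with copies summed; 0 passed limma and 4 passed DESeq2. Over all genes edgeR called 10, and 0 without a filter, at 1 CPM or with the GC trend removed; limma called 0 and DESeq2 539. At an unadjusted edgeR p under 0.05 there were 26 members, and 5 with the GC trend removed. The 14 genes at least 1.5-fold higher became 8 under total count scaling and 2 with the GC trend removed. One siRNA alone gave between 15 and 23, the 23 being without siRNA 2. At least 1.5-fold lower it gave between 2 (without siRNA 1) and 6 (without siRNA 2) in place of 1, at least 2-fold higher between 1 and 2, and at least 2-fold lower 1. The median of 0.51 became 0.41 under total count scaling and 0.14 with the GC trend removed, and ranged from 0.42 to 0.53 with 1 siRNA alone. The cause was not tested.

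The sign of the edgeR log2 fold change turned with the GC trend removed for NCAPD2 (0.071), PLK1 (0.33), CDC20 (0.093), INCENP (0.20), BUB3 (-0.23), MAD2L1 (-0.33) and ANLN (-0.063). UBE2C and KIF2C turned to -0.081 and -0.063 under total count scaling, and to -0.084 and -0.068 in limma. With 1 siRNA alone the sign turned for the 5 genes of mixed sign, whose values ran from -0.66 to 0.33 for AURKA, -0.37 to 0.025 for PLK1, -0.059 to 0.088 for UBE2C, -0.071 to 0.32 for PTTG1 and -0.076 to 0.14 for KIF2C. The remaining members kept their sign under these settings. No paired analysis was possible because the control group has 1 library.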
